A study of Rattus norvegicus with 16 samples.

Results

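Platelet and megakaryocyte genes were examined in cells that adhered to titanium implants in rat bone. The set was given by name and held 8 genes: the chemokine genes Pf4 and Ppbp, the von Willebrand factor receptor genes Gp1ba, Gp9 and Gp5, the collagen receptor gene Gp6, the granule receptor gene Treml1 and the tubulin gene Tubb1. Rows of the array were matched by the platform annotation. Of the 8 genes, 6 had a row that named them alone, with 1 row each, out of 17245 genes tested, and Gp6 and Tubb1 were not analysed here for want of such a row.

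Male Sprague Dawley rats received implants of commercially pure titanium in the tibiae. AT-I implants carried nanoscale surface features, and AT-II implants were microrough and carried none. Each of 8 rats had 2 AT-I implants in one tibia, chosen at random, and 2 AT-II implants in the opposite one, and 4 rats were killed at day 2 and 4 at day 4. RNA of the cells left on the rinsed implants was hybridised to 16 Affymetrix Rat Gene 1.1 ST arrays, which gave 4 groups of 4 arrays, 1 for each surface at each day. All groups shared ketamine and xylazine anaesthesia, lidocaine with epinephrine at the site, drilled bone, and ketoprofen, a cyclooxygenase inhibitor, as the analgesic after surgery. The labels gave a body weight and no age, there was no rat without an implant, and both implants of a tibia were pooled in a sample.

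Platelets are fragments of megakaryocytes, large cells of the bone marrow that load them with granules, receptors and mRNA. Because platelets have no nucleus, their mRNA is what the megakaryocyte packed. When a vessel is cut, the glycoprotein Ib-IX-V complex tethers platelets to von Willebrand factor on exposed collagen, glycoprotein VI then triggers activation, and the granules release chemokines and growth factors. Drilling an implant site opens marrow and vessels, so a clot with platelets covers an implant early, and the marrow beside it holds megakaryocytes. The arrays measured RNA of all adherent cells at once, so RNA of platelets and of megakaryocytes cannot be told apart, and fewer cells of a type cannot be told apart from less RNA per cell.

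The promoters of the 3 von Willebrand factor receptor genes are shown because these genes encode subunits of the same receptor and their mRNA levels followed each other closely (r of 0.89 to 0.93, described below). Each window holds 300 bases, from 250 before to 50 after the annotated start, read 5′ to 3′ along the gene, from RefSeq on build GRCr8; a window was found for 7 of the 8 genes, all but Pf4. Capitals mark matches, on either strand, to letters bound by GATA factors or by ETS factors. The GATA letters searched were AGATAA, its form with a final G (AGATAG), its form with a leading T (TGATAA) and the form with both (TGATAG). The ETS letters searched were AGGAAG. The Gp1ba window is chr10:55851309-55851608, the Gp5 window chr11:83948257-83948556 and the Gp9 window chr4:121792592-121792891, all on the plus strand.
Gp1ba: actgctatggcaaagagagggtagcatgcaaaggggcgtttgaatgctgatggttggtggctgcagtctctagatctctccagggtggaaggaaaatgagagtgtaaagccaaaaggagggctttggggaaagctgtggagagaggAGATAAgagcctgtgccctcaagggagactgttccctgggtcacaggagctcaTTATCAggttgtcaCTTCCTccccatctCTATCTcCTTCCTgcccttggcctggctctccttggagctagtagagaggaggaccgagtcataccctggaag
Gp5: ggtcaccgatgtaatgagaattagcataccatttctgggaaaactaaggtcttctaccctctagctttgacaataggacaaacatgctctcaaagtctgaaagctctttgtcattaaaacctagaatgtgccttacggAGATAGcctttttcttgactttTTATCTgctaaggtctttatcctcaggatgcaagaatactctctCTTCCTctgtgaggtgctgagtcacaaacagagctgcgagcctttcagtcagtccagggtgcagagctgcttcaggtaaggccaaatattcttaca
Gp9: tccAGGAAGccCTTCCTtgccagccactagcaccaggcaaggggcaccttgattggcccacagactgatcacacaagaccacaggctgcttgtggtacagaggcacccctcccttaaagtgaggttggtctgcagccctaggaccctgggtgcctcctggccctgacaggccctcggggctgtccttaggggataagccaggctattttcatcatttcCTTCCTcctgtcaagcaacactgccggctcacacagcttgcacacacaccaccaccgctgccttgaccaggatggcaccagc

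The Gp1ba window held 3 GATA and 2 ETS matches, of which 4 began between positions -51 and -16 relative to the start. The Gp5 window held 2 GATA matches and 1 ETS match. In the Gp9 window 3 ETS matches and 0 GATA matches were found with these letters. Over 33469 promoter windows of the same length, 30.3% held a GATA match, 34.5% an ETS match and 10.7% both, so such matches are common, and each is a description of the letters only. Gp6 had 1 match of each kind, Tubb1 had 1 ETS match, and Ppbp and Treml1 had 0 of either.

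Values are log2 expression. Of 120 pairs of arrays, replicates 2 and 3 of AT-II day 2 were the closest by far (SD of their difference 0.11 in the most variable rows, against 0.29 or more elsewhere). Their mean therefore stood for 1 sample, which left n = 3 for that group. The gene medians of the arrays lay between 6.57 and 6.92. Osteoblast markers, 8 of 8 measured, had sample means of 7.19 to 8.72 at day 2 and of 10.15 to 10.93 at day 4. Neutrophil markers, 12 of 12 measured, had sample means of 10.30 to 11.19. By these lists the adherent cells were a mixture at day 4. At day 2 the osteoblast list lay nearer the gene medians, though still above them. Erythroid markers had day 2 group means of 10.98 on AT-I and 11.17 on AT-II, and macrophage markers 9.30 and 9.53. Haematopoietic progenitor markers lay near the medians, with 6.76 and 6.85. The cells of day 2 were thus not of 1 type by these lists either. Precision is limited by how few arrays each group holds. The labels do not say which replicate came from which rat, so the surfaces were compared without pairing. The p-values set each difference against the spread between these samples. Each rat carried both surfaces, so for the surfaces that spread includes differences between rats that a pairing would have taken out.

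All 6 measured genes stood above the array's gene median on each of the 16 arrays, and none differed between the surfaces or between the days by the test. Most of the variation lay between samples of the same group, and in it 5 of the 6 genes followed each other closely and Pf4 less so.

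Pf4 encodes platelet factor 4, a CXC chemokine of the alpha granules that binds heparin. At day 2 Pf4 had 10.75, 11.42, 10.96 and 10.78 on AT-I replicates 1 to 4, and 11.15, 10.99, 10.98 and 10.33 on AT-II replicates 1 to 4. The lowest value of day 2 was on AT-II and the highest on AT-I, and the 2 groups overlapped. At day 4 Pf4 had 10.62, 11.00, 10.74 and 10.03 on AT-I, and 10.54, 10.79, 10.90 and 10.64 on AT-II. AT-II at day 4 was the tightest group, and it lay within the range of AT-I. On AT-I the mean was 10.98 ± 0.31 (SD, n = 4) at day 2 and 10.60 ± 0.41 (SD, n = 4) at day 4. On AT-II it was 10.82 ± 0.43 (SD, n = 3) at day 2 and 10.72 ± 0.16 (SD, n = 4) at day 4.

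Ppbp encodes pro-platelet basic protein, the granule precursor from which a neutrophil-attracting chemokine is cut. At day 2 Ppbp had 10.94, 11.64, 10.15 and 11.26 on AT-I and 11.87, 11.20, 11.28 and 10.83 on AT-II. AT-I replicate 3 was the low sample of that day and AT-II replicate 1 the high one, with the other samples of both surfaces between them. At day 4 Ppbp had 11.43, 11.37, 10.93 and 10.43 on AT-I and 11.36, 10.80, 9.70 and 11.38 on AT-II. AT-II replicate 3 was the lowest sample of the series for this gene, and again the surfaces overlapped. On AT-I the mean was 11.00 ± 0.63 at day 2 and 11.04 ± 0.47 at day 4, and on AT-II it was 11.31 ± 0.52 at day 2 and 10.81 ± 0.79 at day 4 (SD, with n as for Pf4). In the GRCr8 table Pf4 and Ppbp are neighbours on chromosome 14, beside Cxcl1, Cxcl2, Cxcl3 and Cxcl6.

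Gp1ba encodes the subunit of the glycoprotein Ib-IX-V complex that binds von Willebrand factor. At day 2 Gp1ba had 9.46, 10.25, 8.10 and 9.67 on AT-I and 10.30, 9.99, 9.96 and 9.05 on AT-II. AT-I replicate 3 lay far below the other samples, and the remaining AT-I samples fell inside the range of AT-II. At day 4 Gp1ba had 9.79, 10.10, 9.40 and 8.66 on AT-I and 9.59, 9.63, 8.98 and 10.09 on AT-II. The top samples of both surfaces were nearly level, and the low sample was AT-I replicate 4. The AT-I means were 9.37 ± 0.91 at day 2 and 9.49 ± 0.62 at day 4, and the AT-II means 9.78 ± 0.65 and 9.57 ± 0.45 (SD).

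Gp9 encodes glycoprotein IX, which the complex needs to reach the cell surface. At day 2 Gp9 had 8.82, 9.81, 8.24 and 9.31 on AT-I and 9.52, 9.15, 9.33 and 8.53 on AT-II. At day 4 it had 9.04, 9.46, 8.56 and 7.81 on AT-I and 8.74, 8.74, 8.53 and 9.08 on AT-II. On both days the AT-I samples included the highest and the lowest value, with the AT-II samples between them. The AT-I means were 9.04 ± 0.67 at day 2 and 8.72 ± 0.71 at day 4, and the AT-II means 9.10 ± 0.51 and 8.77 ± 0.23 (SD).

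Gp5 encodes glycoprotein V, the subunit that thrombin cuts. At day 2 Gp5 had 9.15, 9.87, 8.12 and 9.10 on AT-I and 9.82, 9.43, 9.43 and 8.48 on AT-II. At day 4 it had 9.17, 9.33, 8.49 and 8.07 on AT-I and 9.02, 9.06, 8.16 and 9.24 on AT-II. AT-I replicate 3 was again low at day 2, AT-I replicate 4 and AT-II replicate 3 were low at day 4, and the groups overlapped. For AT-I the means were 9.06 ± 0.72 at day 2 and 8.76 ± 0.59 at day 4, and for AT-II 9.24 ± 0.69 and 8.87 ± 0.48 (SD).

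Treml1 encodes TLT-1, a receptor stored in the alpha granules that reaches the platelet surface on activation. At day 2 Treml1 had 9.58, 10.16, 9.15 and 9.72 on AT-I and 10.23, 9.73, 9.66 and 9.13 on AT-II. At day 4 it had 9.49, 9.56, 9.17 and 8.40 on AT-I and 9.29, 9.35, 9.03 and 9.28 on AT-II. Most day 4 samples lay in or below the lower part of the day 2 range, and the days overlapped on both surfaces. For AT-I the means were 9.65 ± 0.42 at day 2 and 9.16 ± 0.53 at day 4, and for AT-II 9.69 ± 0.55 and 9.24 ± 0.14 (SD).

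**Figure D1:**
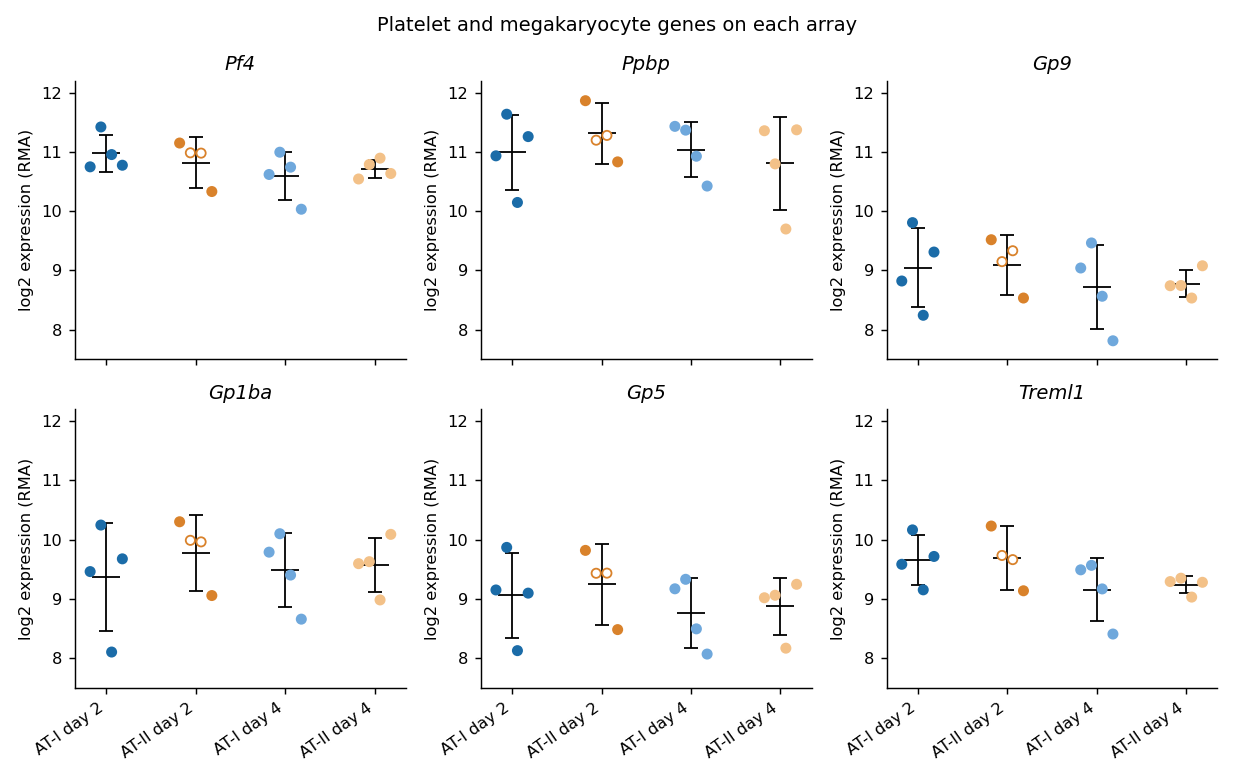
Log2 expression of the 6 measured platelet and megakaryocyte genes on each of the 16 arrays, 1 panel per gene, with the 4 groups along the horizontal axis; points are arrays, open points are the 2 closely agreeing arrays counted as 1 sample, and bars are the mean ± SD. In every panel the groups overlap, and the low points recur in AT-I day 4 replicate 4 and, other than for Pf4, in AT-I day 2 replicate 3.

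The first comparison asked whether the 2 surfaces differed in these genes at day 2. With limma over all genes and Benjamini-Hochberg adjustment, 0 of the 6 genes passed an adjusted p of 0.05, and 0 had an unadjusted p under 0.05. Over all genes 0% passed, while 4701 of 17245 had an unadjusted p under 0.05. The largest difference was that of Gp1ba, at -0.41 ± 0.45 (SE) for AT-I minus AT-II (limma adjusted p = 0.527), and the others were -0.32 ± 0.41 for Ppbp, -0.18 ± 0.41 for Gp5, -0.05 ± 0.38 for Gp9, -0.03 ± 0.29 for Treml1 and 0.15 ± 0.23 for Pf4. Their median was -0.12, beside -0.09 over all genes. The 95% confidence intervals ran from 2.57-fold lower to 1.68-fold higher on AT-I, so differences of that size are not excluded at this number of arrays. The interquartile range over genes also differed between these groups, from 2.49 to 2.98 on AT-I and from 3.05 to 3.41 on AT-II. With that range as a covariate the value of Gp1ba was 0.22, and over all 26 other settings it ran from -0.77 to 0.22. Without AT-I day 2 replicate 3 it was 0.02, and those of Gp9 and Gp5 were 0.22 and 0.13.

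At day 4 the surfaces were compared in the same way. Again 0 of the 6 genes passed in limma and 0 had an unadjusted p under 0.05, against 0% of all genes passing and 687 with an unadjusted p under 0.05. Ppbp differed by 0.23 ± 0.38 and the other 5 genes by -0.12 (Pf4) to -0.05 (Gp9), with a median of -0.08 beside -0.03 over all genes. These signs turned with 1 sample: without AT-II day 4 replicate 3 Ppbp had -0.14, and without AT-I day 4 replicate 4 the other 5 genes had values above 0, from 0.07 for Pf4 to 0.25 for Gp9. The smallest limma adjusted p was 0.947. The 95% confidence intervals reached 1.96-fold lower and 2.06-fold higher on AT-I.

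The days were then compared on AT-I, to see how the genes changed as the implants stayed in bone. No member passed in limma (0 of 6, and 0 with an unadjusted p under 0.05), whereas 11.5% of all genes passed, 8.84% higher and 2.66% lower at day 4. Treml1 had the smallest p, with a difference of -0.50 ± 0.27 (SE, limma adjusted p = 0.238), followed by Pf4 with -0.38 ± 0.22 (limma adjusted p = 0.265). Gp9 differed by -0.33 ± 0.35 and Gp5 by -0.30 ± 0.38, while Ppbp (0.04 ± 0.38) and Gp1ba (0.12 ± 0.42) had values near 0. The median of the 6 was -0.31, beside -0.05 over all genes. The 95% confidence intervals reached 2.15-fold lower and 2.00-fold higher at day 4. AT-I day 4 replicate 4, the lowest sample for 4 of the 6 genes, weighed on these values, and without it Gp9 had -0.02, Pf4 -0.19 and Treml1 -0.25. AT-I day 2 replicate 3 weighed the other way, and without it Gp9 had -0.59, Gp1ba -0.31 and Ppbp -0.24.

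On AT-II the values of day 4 minus day 2 were below 0 for all 6 genes, and 0 of 6 passed in limma, with 0 at an unadjusted p under 0.05. Of all genes 3.33% passed, 3.13% higher and 0.203% lower. Ppbp had the largest difference, -0.51 ± 0.41, and Treml1 the smallest p, with -0.45 ± 0.29 (limma adjusted p = 0.587). Gp5 had -0.37 ± 0.41, Gp9 -0.32 ± 0.38, Gp1ba -0.20 ± 0.45 and Pf4 -0.11 ± 0.23. The median was -0.35, beside -0.05 over all genes. The 95% confidence intervals reached 2.60-fold lower and 1.68-fold higher. These values depended on single samples. Leaving out AT-II day 4 replicate 3 gave -0.14 for Ppbp. Leaving out AT-II day 2 replicate 1 gave -0.23 for Ppbp and -0.18 for Treml1, and leaving out replicate 4 of that group gave -0.73 for Treml1. Members are not independent of each other, so the shared sign of the 6 values is a description, and without AT-II day 2 replicate 1 both Gp1ba and Pf4 had 0.06.

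The difference between the 2 time courses was tested directly. It ran from -0.27 ± 0.32 for Pf4 to 0.55 ± 0.56 for Ppbp, with a median of 0.04 beside 0.03 over all genes. Both ends moved with 1 sample, Pf4 to -0.03 without AT-II day 2 replicate 4 and Ppbp to 0.18 without AT-II day 4 replicate 3. In limma 0 of 6 genes passed (smallest adjusted p = 0.928) and 0 had an unadjusted p under 0.05, and 0% of all genes passed, with 707 at an unadjusted p under 0.05. The order of the groups by the mean of the 6 genes was AT-II day 2 (9.99), AT-I day 2 (9.85), AT-II day 4 (9.66) and AT-I day 4 (9.63), and in 0 of the 4 comparisons of surfaces or days did a member pass.

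**Figure D2:**
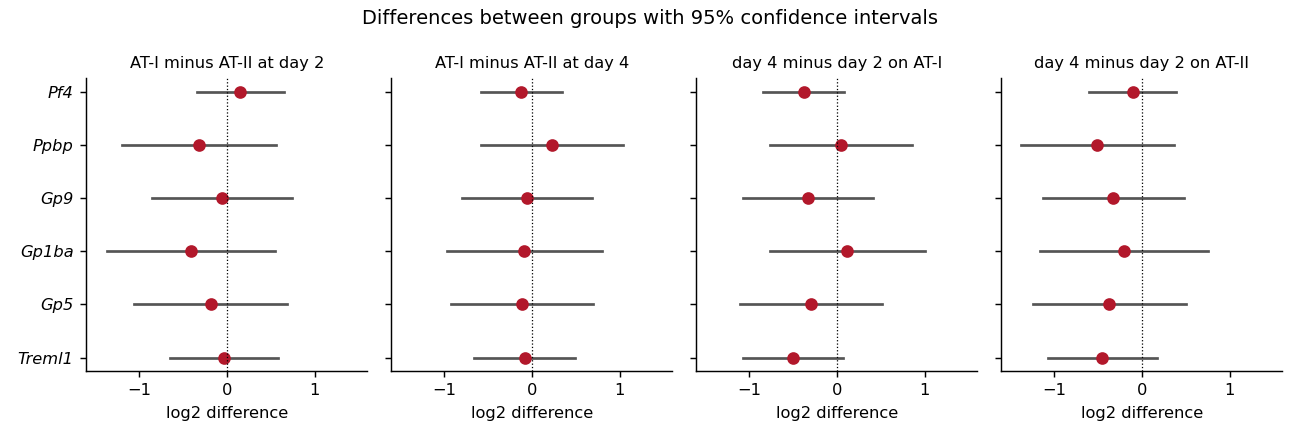
Log2 differences of the 6 genes in the 4 comparisons of surfaces and days, with points for the fitted differences and lines for their 95% confidence intervals on the horizontal axis. Every interval crosses 0, the day 4 minus day 2 values on AT-II are all below 0, and the intervals of Pf4 and Treml1 are the narrowest.

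The spread within groups was large for these genes. The pooled within-group SD was 0.68 for Gp1ba, 0.62 for Ppbp, 0.62 for Gp5, 0.57 for Gp9, 0.43 for Treml1 and 0.34 for Pf4, against a median of 0.23 over all genes. The SD of Gp1ba was above that of 98.9% of genes, and that of Pf4 above that of 79.5%. Differences within groups made up 94.4% of the variation of Gp1ba over the samples, 90.6% for Ppbp, 90.1% for Gp5, 89.9% for Gp9, 80.1% for Pf4 and 70.6% for Treml1, with a median of 61.1% over all genes. With 15 samples in 4 groups, most of the variation is expected within groups for any gene whose groups do not differ. These shares are therefore a description that largely restates the comparisons above. From the lowest to the highest array Gp1ba varied 4.60-fold, Ppbp 4.50-fold, Gp9 3.99-fold, Treml1 3.54-fold, Gp5 3.49-fold and Pf4 2.62-fold.

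The same samples were high or low for most of the genes. AT-I day 2 replicate 2 (mean of the 6 genes 10.52) and AT-II day 2 replicate 1 (10.48) were among the 3 highest samples for all 6 genes. At the other end, AT-I day 4 replicate 4 (8.90) was among the 3 lowest for all 6, AT-II day 4 replicate 3 (9.22) for 5 and AT-I day 2 replicate 3 (9.12) for 4. High and low samples thus occurred on both surfaces, and at day 4 the low samples also came from both.

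Correlations over the 15 samples were computed for all 15 pairs of the 6 genes, with permutation p-values from 100000 resamples adjusted over the 15 pairs. Samples from both tibiae of a rat may not be independent, which these p-values ignore. The 3 von Willebrand factor receptor genes followed each other with r = 0.93 for Gp1ba and Gp5, 0.93 for Gp9 and Gp5 and 0.89 for Gp9 and Gp1ba, and rho of 0.96 for all 3 pairs (permutation adjusted p = 2.5e-05 for r, from 1e-05, the smallest that the resamples can give). Ppbp and Treml1 joined them: over the 10 pairs without Pf4, r ran from 0.73 to 0.93 and rho from 0.75 to 0.96, and all 10 passed (permutation adjusted p of at most 0.00216 for r). Without the 2 samples farthest from the median of the first gene of each pair, r was 0.78 to 0.94. Within day 2 it was 0.90 to 0.97, within day 4 0.63 to 0.96, and between deviations from the group means 0.80 to 0.97, so the pattern was present within days and groups.

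Pf4 followed the others less closely. Its r was 0.81 with Treml1 (permutation adjusted p = 0.000967), 0.74 with Gp9 (0.00216), 0.61 with Gp5 (0.0163), 0.48 with Gp1ba (0.0778) and 0.32 with Ppbp (0.246), and its rho was 0.62 with Treml1, 0.61 with Gp9, 0.60 with Gp5, 0.53 with Gp1ba and 0.28 with Ppbp (permutation adjusted p of 0.0197, 0.0218, 0.0237, 0.0462 and 0.307). Without the 2 samples farthest from the median of Pf4, these 5 values of r were between 0.01 and 0.54. Leaving those samples out narrows the range of Pf4, which by itself tends to lower r, and rho was not computed without them. Pf4 stood apart in a pair of samples. The distance of Pf4 from the mean of the other 5 genes ran from 0.81 to 1.43 in 13 samples, but was 2.20 in AT-I day 2 replicate 3 and 2.02 in AT-II day 4 replicate 3. In those samples Ppbp and the receptor genes were low while Pf4 was not, with 10.96 and 10.90, the latter the highest of its group. Without that pair, chosen after its values were seen, Pf4 and Ppbp had r = 0.75 and rho = 0.51 over 13 samples, given with no test.

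**Figure D3:**
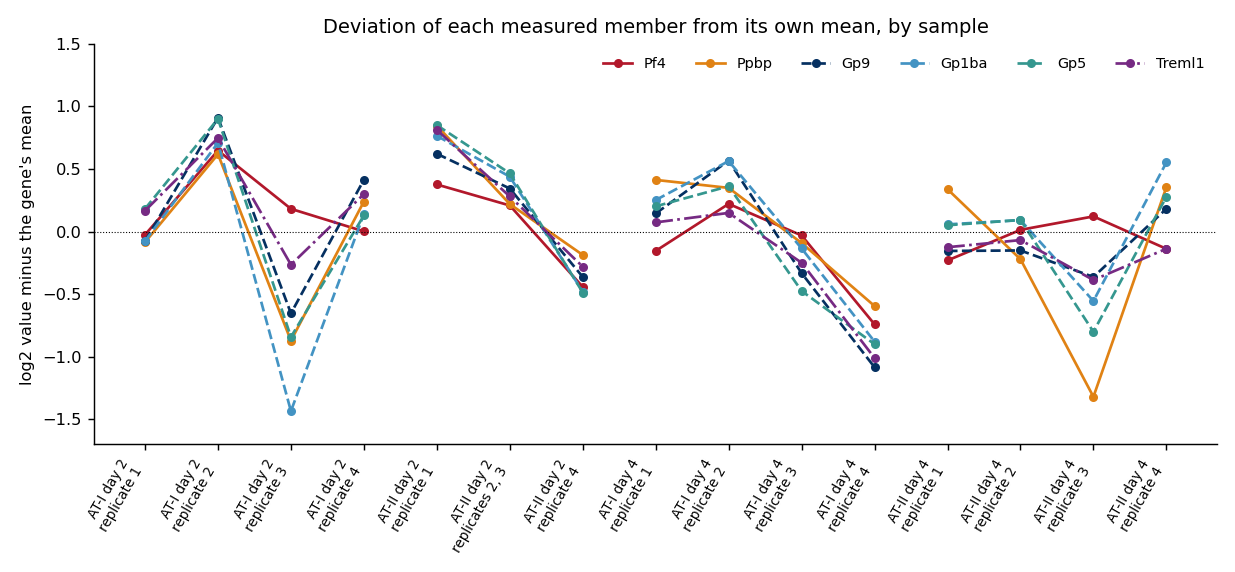
Deviation of each of the 6 genes from its own mean over the 15 samples, in log2 units, by sample along the horizontal axis; lines join the samples of a group only to guide the eye. The lines of Ppbp, Gp9, Gp1ba, Gp5 and Treml1 lie close together in most samples, and Pf4 departs from them in AT-I day 2 replicate 3 and AT-II day 4 replicate 3.

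The genes outside the set whose values were most like the mean of the 6 measured members over the 15 samples were ranked by Pearson r, as a description with no test. They were Rasgrp2 (r = 0.96, rho = 0.99), which encodes an activator of the small GTPase that switches on platelet integrins, Fgl2 (r = 0.96, rho = 0.97), which encodes a fibrinogen-like protein, and Rbpms2 (r = 0.96, rho = 0.96), an RNA-binding protein gene. Next came Mmrn1 (r = 0.96, rho = 0.92), which encodes the granule protein multimerin 1, Gnaz (r = 0.95, rho = 0.97), a G protein subunit gene, and Ly6g6f (r = 0.95, rho = 0.95), which encodes a platelet membrane protein. Timp3, an inhibitor of metalloproteinases, and Tuba4a, an alpha tubulin gene, had r = 0.95 with rho of 0.96 and 0.97. Without the 2 farthest samples the 8 genes kept r of 0.92 to 0.98. In the 4 comparisons of surfaces and days 0 of the 8 passed (smallest limma adjusted p = 0.419). Of all genes 11.5% passed between the days on AT-I, 3.33% on AT-II and 0% between the surfaces. The 8 were chosen for likeness to members of which 0 passed, so their count is not a separate result. Over 17239 other genes the median r was -0.04, the 95th percentile 0.66 and the 99th percentile 0.81, and 34 genes had r above 0.9. The member mean had r = 0.20 with the interquartile range of the array and r = -0.08 with its gene median.

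Lists of other platelet and megakaryocyte genes were set beside the members. Among 8 measured megakaryocyte transcription factor genes, 5 had r above 0.8 with the member mean, Nfe2 the highest with 0.90, Gfi1b 0.82 and Gata1 0.80, while Runx1 had 0.54. Of 13 measured genes of granule cargo and formation, 5 had r above 0.8, among them Vwf with 0.94, Rab27b with 0.89 and Slc35d3 with 0.86, and Pdgfa, a growth factor gene, had -0.59. Of 21 measured genes of platelet signalling and cytoskeleton, 8 had r above 0.8, with Cavin2 at 0.93 and Mpig6b at 0.86. In the adhesion receptor list 2 of 7 did, the integrin subunit gene Itga2b (0.93) and the P-selectin gene Selp (0.92), and Jam3 had -0.42. The eicosanoid enzyme list was split. There 2 of 5 had r above 0.8, with Ptgs1, the cyclooxygenase gene of platelets, at 0.91, while Pla2g4a had 0.28 and Tbxas1 -0.18. In the agonist receptor list 1 of 7 did, the ATP receptor gene P2rx1 (0.89), whereas the thrombin receptor gene F2r had -0.01 and the ADP receptor gene P2ry12 -0.05. Taken as list means, r with the member mean was 0.91 for signalling and cytoskeleton, 0.90 for transcription factors and 0.90 for granule genes. For agonist receptors it was 0.83, for eicosanoid enzymes 0.75 and for adhesion receptors 0.75.

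Markers of other cell types also moved with the members. The mean of 12 neutrophil markers had r = 0.87 with the member mean and rho = 0.89, with Mpo at 0.94 and Elane at 0.82 and 2 of 12 above 0.8. Its sample means ran from 10.55 to 11.19 on AT-I day 2, from 10.61 to 11.14 on AT-II day 2, from 10.30 to 10.93 on AT-I day 4 and from 10.40 to 10.70 on AT-II day 4. The mean of 11 erythroid markers had r = 0.70 and rho = 0.85, with 1 of 11 above 0.8 (Epor, the erythropoietin receptor gene, at 0.83). Its sample means ran from 10.37 to 11.35 on AT-I day 2, from 10.71 to 11.58 on AT-II day 2, from 10.25 to 11.34 on AT-I day 4 and from 10.03 to 11.21 on AT-II day 4. For 7 haematopoietic progenitor markers r was 0.68, with 0 of 7 above 0.8, and for 7 endothelial markers it was 0.50, with 1 of 7 above 0.8 (Vwf, which platelets share). The lists of B cells (0.22), mast cells and basophils (0.08), macrophages (-0.02), T cells (-0.05), osteoblasts (-0.32) and fibroblasts (-0.44) were less like the members, although Cd163 of the macrophage list had 0.81. Which other cells lay beside the platelets or megakaryocytes in a sample, and their part in the spread, was not tested.

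**Figure D4:**
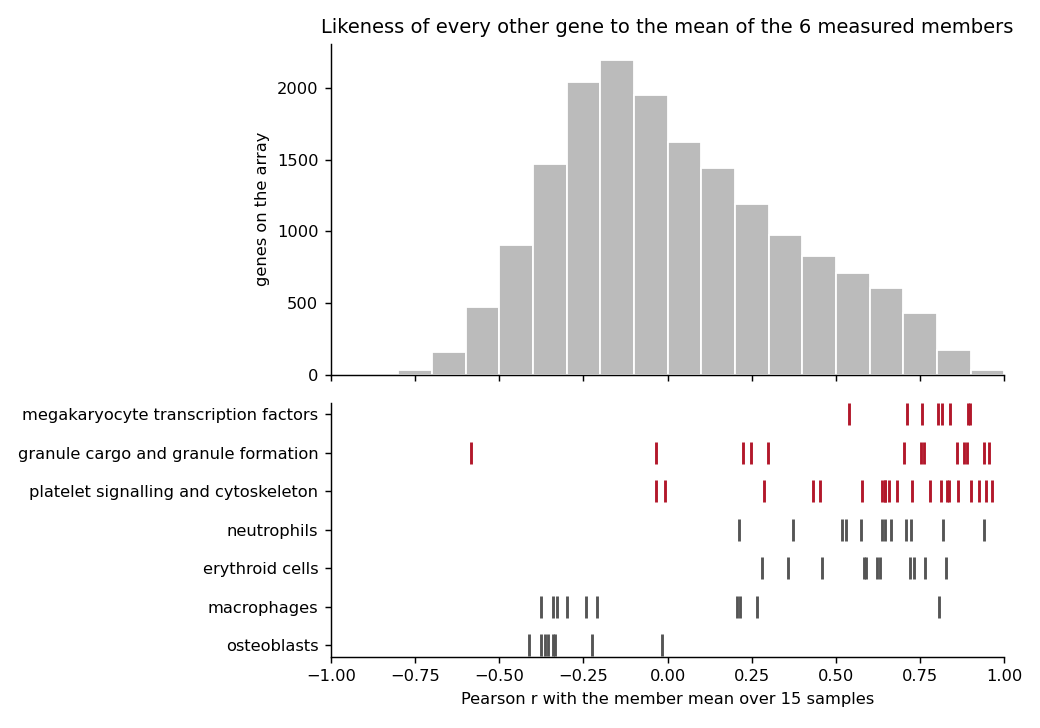
Upper panel: number of genes by their Pearson r with the mean of the 6 measured members over 15 samples, for 17239 other genes. Lower panel: each tick is a gene of the named list, with other cell types in grey. Lists in red are the transcription factor, granule, and signalling and cytoskeleton genes. The adhesion receptor, agonist receptor and eicosanoid enzyme lists are not drawn. Many red ticks lie at high r, but some lie near or below 0, down to -0.59 for Pdgfa. The neutrophil ticks all lie above 0, and the osteoblast ticks all lie below 0.

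The same lists were counted in the comparisons, again by limma adjusted p under 0.05 over all genes. The 6 platelet and megakaryocyte lists held 61 measured genes. Between the surfaces 0 of the 61 passed on either day, beside 0% of all genes. At day 2 an unadjusted p under 0.05 was found for 7 of the 61, beside 27.3% of all genes: 2 of 7 adhesion receptor genes, 3 of 7 agonist receptor genes, 1 of 13 granule genes, 1 of 5 eicosanoid enzyme genes, 0 of 21 signalling and cytoskeleton genes and 0 of 8 transcription factor genes. At day 4 it was found for 1 granule gene, beside 3.98% of all genes. The medians at day 2 were -0.34 for the adhesion receptors, -0.38 for the agonist receptors, -0.28 for the granule genes, -0.16 for signalling and cytoskeleton, -0.25 for the eicosanoid enzymes and -0.31 for the transcription factors, all lower than that of all genes (-0.09). Lists of other cells varied. Their medians were -0.40 for fibroblasts, -0.34 for endothelial cells, -0.28 for erythroid cells, -0.26 for macrophages, -0.24 for haematopoietic progenitors and -0.22 for osteoblasts. For T cells the median was -0.13, for mast cells and basophils 0.02, for neutrophils 0.05 and for B cells 0.14.

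Over time on AT-I, 4 of the 61 rose and 1 fell, beside 8.84% and 2.66% of all genes, and 12 had an unadjusted p under 0.05, beside 27.9% of all genes. Of 7 adhesion receptor genes 2 rose and 0 fell. Jam3, a junctional adhesion molecule also found outside platelets, rose by 1.09 ± 0.16 (SE, limma adjusted p = 0.000388), and Cd9, a tetraspanin of many cells, rose by 0.55 ± 0.16 (limma adjusted p = 0.0381). The call of Cd9 ended under 12 of 26 other settings, 7 of which left out 1 sample, at values of 0.38 to 0.59. Of 7 agonist receptor genes 1 rose, the thrombin receptor gene F2r, by 0.73 ± 0.18 (limma adjusted p = 0.0131), whose call ended with array weights or the interquartile range as a covariate. Of 13 granule genes 1 rose, Pdgfa, by 1.16 ± 0.22 (limma adjusted p = 0.00263). Of 21 signalling and cytoskeleton genes 1 fell, the tubulin gene Tubb2a, by 0.43 ± 0.11 (limma adjusted p = 0.0174), whose call ended without AT-I day 4 replicate 4 (-0.41) and with only the groups compared in the fit (-0.43). None of the 5 that passed had a high likeness to the members: r was -0.42 for Jam3, -0.16 for Cd9, -0.59 for Pdgfa, 0.29 for Tubb2a and -0.01 for F2r.

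On AT-II 2 of the 61 rose and 1 fell, beside 3.13% and 0.203% of all genes, and 7 had an unadjusted p under 0.05, beside 13% of all genes. Jam3 rose by 0.77 ± 0.17 (limma adjusted p = 0.0197) and Pdgfa by 0.90 ± 0.23 (limma adjusted p = 0.0481). Pla2g4a, the phospholipase gene that frees arachidonic acid, fell by 0.40 ± 0.10 (limma adjusted p = 0.0419), as 1 of 5 eicosanoid enzyme genes. These calls depended on the setting: that of Jam3 ended under 7 of 26 settings (0.66 to 0.76), that of Pla2g4a under 13 (-0.43 to -0.38) and that of Pdgfa under 14 (0.76 to 0.96), with 4, 10 and 11 of these leaving out 1 sample. Of 8 megakaryocyte transcription factor genes 0 passed in either time comparison, with 0 at an unadjusted p under 0.05. Meis1 had the smallest p of that list in the 4 comparisons, with -0.49 ± 0.23 for the surfaces at day 2 (limma adjusted p = 0.188). Of 6 measured thrombopoietic factor genes 0 passed, with 3 at an unadjusted p under 0.05 on AT-I (27.9% of all genes) and 1 on AT-II (13%), and the gene of stem cell factor, Kitlg, differed by 0.68 ± 0.23 on AT-I (limma adjusted p = 0.0675).

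Chemokine genes and receptor genes related to Pf4 and Ppbp were taken as a family. On AT-I, 1 of 12 measured rose and 1 fell between day 2 and day 4, beside 8.84% and 2.66% of all genes, with 7 of 12 at an unadjusted p under 0.05, beside 27.9%. Cxcl13, which attracts B cells, rose by 1.08 ± 0.20 (limma adjusted p = 0.00258), and Cxcl2, a neutrophil attractant whose gene lies near Pf4, fell by 3.39 ± 0.99 (limma adjusted p = 0.037). The call of Cxcl2 ended without any 1 of 5 samples (values of -3.47 to -2.77 over 7 settings in all). On AT-II 0 of 12 passed in limma, beside 3.33% of all genes, with 2 at an unadjusted p under 0.05, beside 13%. The median of the family on AT-I was -0.47, beside values of -0.38 for Pf4 and 0.04 for Ppbp, and the family mean had r = 0.42 with the member mean.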

How the data were processed

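RNA of implant-adherent cells was measured on 16 arrays. The authors deposited log2 expression values, for which the submitters' processing notes name RMA and Affymetrix Expression Console without versions. That the logarithm is to base 2 was inferred from RMA. The lowest value was 1.82 and the highest 14.0.

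The platform annotation gave 1 gene for 18644 rows (18460 of them found in the GRCr8 table), several for 962 and none for 9608; only the first kind was used, with the brightest row for 879 genes that had more than 1. Groups came from sample titles. The fit (limma 3.58.1, R 4.3.3) used lmFit, then eBayes, for 17245 genes (15 samples, group means, no covariate, two-sided, residual degrees of freedom 11, prior degrees of freedom 4.44), with Benjamini-Hochberg adjusted p under 0.05. The script was tested on simulated data. Closeness of arrays was judged over the 10% most variable of 4036 rows with a mean above 9. Correlations, with two-sided permutation, used scipy 1.17.1 and numpy 2.4.6 under Python 3.11.15.

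The members, the 18 gene lists, the tests and the averaging of the 2 close arrays were chosen with earlier results of these data known. Named genes were all members, up to 4 passing genes per list by smallest p or else the gene with the smallest p, and the 8 genes most like the members; list genes named for their likeness were chosen after their values were seen, and some passing genes of other cell types were left unnamed. The 26 other settings left out each of 15 samples, or took all 16 arrays, other scalings, the mean of a gene's rows, a filter on dim genes, only the groups compared, array weights, another variance prior, the interquartile range as a covariate, a replicate block, or, added after the data were seen, left out every sample numbered 1 of day 2.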

Additional observations from a re-analysis of the deposited data

Results flagged for a closer look

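None of the 6 measured platelet and megakaryocyte genes had a sample set apart from the rest of its group by Dixon's criterion. Among 40 genes in the groups of 4 (120 groups; AT-II day 2, with 3 samples, was not checked), 6 values of other genes were set apart, where chance gives about 5% of groups. Of the platelet lists, Cd9 lay at 9.59 in AT-I day 2 replicate 1, while its other samples had 10.22 to 10.31. Pdgfa reached 8.32 in replicate 3 of the same group (others 7.26 to 7.36), a sample that was low for most members. Tubb2a had 8.12 in AT-I day 4 replicate 2 (others 7.89 to 7.92). Of the osteoblast and fibroblast lists, Sp7 had 5.74 in AT-I day 2 replicate 1 (others 6.70 to 6.73), and Dcn had 8.15 in that sample (others 9.75 to 9.98). For Fap, AT-I day 2 replicate 3 had 7.25 and the others 6.25 to 6.38.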

How the results depend on the processing

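In limma, 0 members passed under any of the 26 other settings in the comparisons of surfaces and days, or under any that was run for the difference between the time courses, which needs all groups and so was not run with only the groups compared (774 values, of which 8 had an unadjusted p under 0.05 and 77 had the other sign; smallest adjusted p = 0.11, for Pf4 between the days on AT-I with centred arrays). Leaving out each sample in turn gave 0 members in each comparison as well. The count over all genes between the surfaces at day 2 depended on the setting, with 0 genes as reported, 711 without AT-I day 2 replicate 2, 2193 with all 16 arrays counted separately, 3713 with array weights and 3823 with the replicate block, and 0 members among them. Centring each array on its median moved every gene's difference by 0.14 for the surfaces at day 2, by 0.09 at day 4, by -0.16 for the days on AT-I and by -0.11 on AT-II. The median correlation between members, 0.81, ran from 0.77 (without AT-I day 2 replicate 2) to 0.87 (without AT-II day 4 replicate 3).

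With the replicate number as a block and 16 arrays, 0 members passed in any comparison (smallest limma adjusted p = 0.115, for Pf4 between the days on AT-I). Between the surfaces the block joined samples of the same number and day. In the comparisons over time it joined the same number across days, where different rats were killed, so there it could not stand for a rat. Replicate numbers were not shown to pair samples: deviations of same-numbered samples correlated at 0.64, 0.51, -0.26 and 0.15 at day 2 and at 0.13, -0.34, 0.47 and 0.20 at day 4, and 4 of the 8 AT-I samples correlated best with their own number. Replicates 2 and 3 of AT-II day 2 are the close pair, so the values of 0.51 and -0.26 were taken against nearly the same sample, and AT-I day 2 replicate 2, not among the 4, correlated best with the other array of that pair.

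The number of arrays limits these results, since the confidence intervals of single members span differences of about 2-fold, and with 1 row per gene no second probe set checks a value. A p that misses the threshold does not show that the groups were alike.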
